A study of Mus musculus with 105 samples.

Results

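Between day 2 and day 3 after 2i/Lif withdrawal, 18 of 19 tested smooth muscle and actin genes rose in TX1072 cells. Of all tested genes 13.9% rose and 12.8% fell, and the gene lists were chosen with earlier results of these data known. The keratin genes Krt8 and Krt18 and the pluripotency gene Nanog also rose. Nanog was among 3 rises in 16 naive pluripotency factors, of which 4 fell. Among 16 core and shared pluripotency genes 5 fell and none rose. The de novo DNA methyltransferase gene Dnmt3a and the growth factor gene Fgf4 fell, and the level of Xist RNA overlapped between the days. Of 23 tested Platr genes, stem cell long non-coding RNAs grouped after the values were seen, 15 fell. This step was measured by bulk RNA-seq in 6 libraries, 3 of day 2 and 3 of day 3, out of 105 samples of the study. Of the 52016 genes in the count table, 18871 had enough counts to be tested over the 15 TX1072 libraries of days 0 to 4.

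TX1072 is a female mouse embryonic stem cell line from a cross of the strains C57BL/6 (B6) and CAST/EiJ (Cast), used as 1 clone. Xist on the B6 chromosome sits behind a promoter that doxycycline can induce, and the transactivator rtTA is in the Rosa26 locus. All groups described here were kept in serum with Lif and 2i, a pair of kinase inhibitors that hold the naive state, and were differentiated by withdrawing 2i and Lif on fibronectin in medium with 10% serum. The day 2 and day 3 groups differ only in the time since withdrawal, and each replicate number was differentiated on a separate date, with replicate 1 taken from the population that also gave the single cells. The same step was measured in the lines TXdXicB6 and TXdXicCast, each 1 clone of TX1072 that lacks the region around Xist on the chromosome in its name, with 3 replicates per line and day.

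Embryonic stem cells leave the naive state through a formative phase, in which Nanog and its partners fall and Dnmt3a, Fgf5 and Otx2 rise, before lineage genes appear. In female cells this is the window in which Xist RNA coats a randomly chosen X chromosome and silences it (X-chromosome inactivation, XCI). Actin genes such as Tagln and Myl9 are classical targets of serum response factor, Srf, which binds the CArG box and responds to serum and to actin assembly.

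The libraries held 26163281, 35435958 and 36648673 counts on day 2 and 27867115, 19827011 and 30147369 on day 3. In a principal component analysis of the 15 libraries, the first component took 55.3% of the variance and the second 24.3%, and the libraries of both days formed separate groups. Library 2 of day 3 stood apart in a few abundant RNAs. Mitochondrial transcripts took 8.57% of its counts, against 1.83% and 2.12% in the other day 3 libraries and between 1.27% and 4.11% on day 2. Lars2, a mitochondrial leucyl-tRNA synthetase gene, held 13899 CPM of the raw total in that library and between 16.2 and 23.1 in the other 5. Gm15564, Gm24187, Gm23935 and Mir6236 were high in the same library alone. These 5 genes passed the test as higher only through that library. Without it the fold changes of Lars2, Gm15564, Gm24187 and Gm23935 changed sign and did not pass, Lars2 with a log2 fold change of -0.09 (adjusted p = 0.949, edgeR). The 5 genes are not described further. Without this library the counts over all genes were 2096 higher and 1924 lower. All 32 genes named by rule kept their call and direction, which their choice for large changes without overlap favours.

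Expression was compared with edgeR's quasi-likelihood test at a Benjamini-Hochberg adjusted p of 0.05, on counts scaled with autosomal size factors and given as CPM, counts scaled to a common library total. On day 3, 2616 genes were higher (13.9% of those tested) and 2421 were lower (12.8%) than on day 2. Of these, 1112 and 1002 changed by more than 2-fold, and 273 and 261 by more than 4-fold. The values of both days did not overlap in 4924 of the called genes, and the median log2 fold change over all tested genes was 0.01. By the same test 47% of genes changed from day 0 to day 1, 39.3% from day 1 to day 2 and 27.8% from day 3 to day 4. In bulk RNA a change in the share of cells that express a gene and a change in the RNA per cell cannot be told apart.

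**Figure D1:**
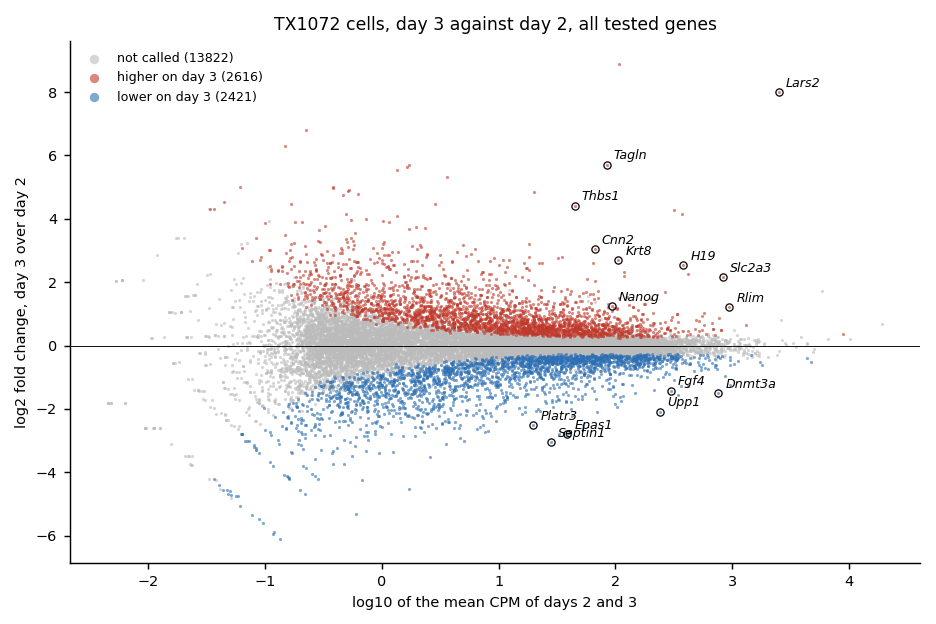
Log2 fold change of day 3 over day 2 (y axis) against the log10 of the mean CPM of both days (x axis), 1 point per tested gene with counts on either day. Red marks the 2616 genes higher and blue the 2421 genes lower at an adjusted p of 0.05; circles mark genes described in the text, and Lars2 rests on 1 library.

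Tagln (transgelin, an actin-binding protein of smooth muscle, ENSMUSG00000032085, chromosome 9 of mm10 from 45929619 to 45936058) had the largest increase of the genes named by rule. It measured 2.32, 3.88 and 3.19 CPM in the day 2 libraries and 192, 143 and 160 CPM in those of day 3, a 52.2-fold rise (log2 fold change 5.71 ± 0.20 SE, adjusted p = 6.46e-12). The lowest day 3 library was thus far above the highest of day 2. Tagln overlaps Pcsk7 on the other strand, which did not pass the test (15.8 and 16.7 CPM on average, adjusted p = 0.731).

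Several of the other named increases were in genes of the matrix and of actin filaments. Thbs1, which encodes the secreted matrix protein thrombospondin 1, rose from 3.53, 3.73 and 4.66 CPM to 108, 71.0 and 77.7 CPM (log2 fold change 4.42 ± 0.26, adjusted p = 4.00e-09). Myl9, the regulatory light chain of non-muscle and smooth muscle myosin, rose from 3.80, 3.65 and 3.19 CPM to 34.7, 33.1 and 30.4 CPM (log2 fold change 3.21 ± 0.16). Cnn2, the actin-binding protein calponin 2, rose from 16.1, 15.3 and 12.02 CPM to 135, 114 and 106 CPM (log2 fold change 3.04 ± 0.15). In all 3 genes the libraries of the days lay well apart. Nexn, another actin filament protein, rose by 2.94 on the log2 scale, and the stretch-gated ion channel gene Piezo2 by 2.89.

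The other named increases fell into further functions. The keratin genes Krt19 and Krt7, intermediate filament proteins of simple epithelia, rose by 2.75 and 2.71 on the log2 scale. Bcl2, an inhibitor of apoptosis, rose by 2.83 from a mean of 1.29 to 9.33 CPM. Eif4g3, a translation initiation factor, went from 8.91 to 61.4 CPM, and the cell adhesion gene Nrcam from 2.91 to 18.7 CPM. Nuak1, an AMPK-related kinase, Tinagl1, a matrix protein of basement membranes, Anxa3, an annexin, and the X-linked Fndc3c1 rose by between 2.76 and 3.17 on the log2 scale. In all of these genes the lowest library of day 3 exceeded the highest of day 2.

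**Figure D2:**
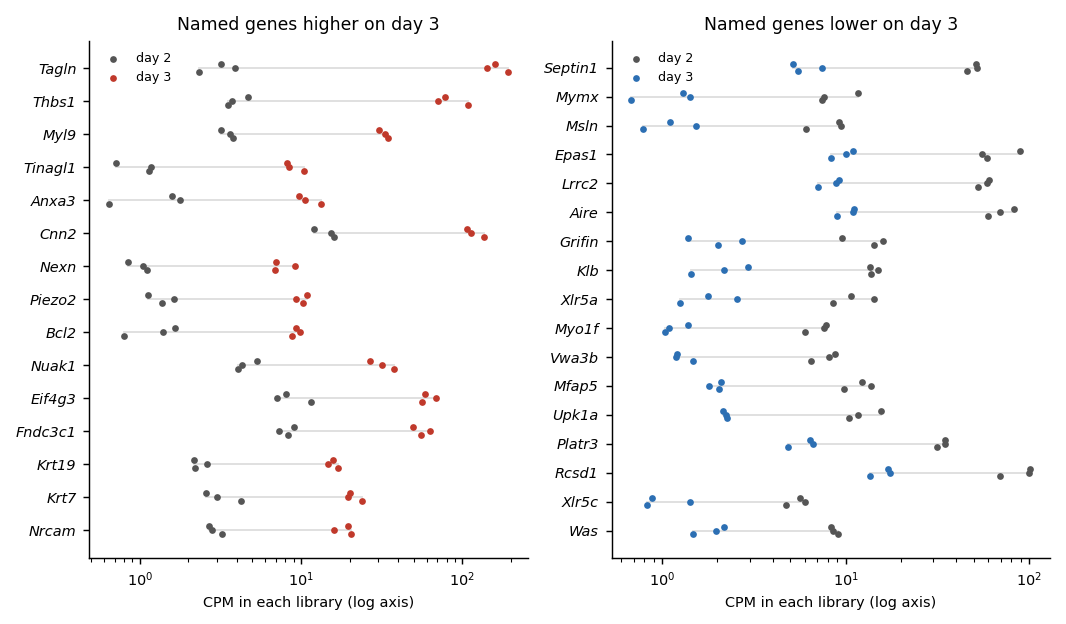
CPM in each library on a log axis (x) for the 15 increases and 17 decreases named by rule (y), 3 points per day. Grey points are day 2 and coloured points day 3; in none of these genes do the days overlap, since the rule required that.

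Of the decreases named by rule, that of Septin1, a GTP-binding cytoskeletal filament gene, was the largest. It measured 45.8, 51.8 and 51.6 CPM on day 2 and 5.48, 7.44 and 5.18 CPM on day 3, an 8.33-fold decrease (log2 fold change -3.06 ± 0.15, adjusted p = 6.14e-10). Epas1, the hypoxia-inducible factor 2 alpha gene, went from 58.6, 55.2 and 89.4 CPM to 8.32, 10.1 and 10.96 CPM (log2 fold change -2.79 ± 0.24). Lrrc2, a leucine-rich repeat gene, went from 52.9, 59.1 and 60.2 CPM to 7.10, 8.86 and 9.19 CPM (log2 fold change -2.78 ± 0.14). None of these libraries overlapped between the days.

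Aire, which encodes the autoimmune regulator of the thymus, fell by 2.77 on the log2 scale, from a mean of 70.3 to 10.3 CPM. It overlaps Dnmt3l on the other strand, which itself decreased (log2 fold change -0.97), and since the strand setting of the counting is not given in the sources used here, reads of the pair may be shared. Mymx, a muscle fusion micropeptide, Msln, mesothelin, and Grifin, a lens galectin, fell by 3.00, 2.90 and 2.73 on the log2 scale from day 2 means of 8.89, 8.24 and 13.3 CPM. Klb, the co-receptor of endocrine FGFs, Myo1f, an unconventional myosin, Vwa3b, Mfap5, a microfibril protein, Upk1a, a uroplakin, and the long non-coding Platr3 fell by between 2.51 and 2.68, and Rcsd1 had a log2 fold change of -2.497. Among X-linked genes with a mean of at least 100 counts, and leaving out predicted models and genes whose libraries overlapped, the 3 largest decreases were Xlr5a, Xlr5c and Was, the last an actin regulator of blood cells, with log2 fold changes of -2.62, -2.43 and -2.21. Xlr5a and Xlr5c are near-identical copies whose annotated spans overlap, and the split of reads between them is uncertain.

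The contractile and actin genes moved as a group. Of the 19 tested members of the smooth muscle and actin list, 18 rose, none fell and the median log2 fold change was 2.26, beside 0.01 over all genes. All 18 kept the call without each library in turn. The counts of every list described here stand against the 13.9% higher and 12.8% lower of all tested genes. The exception was Myh11, the myosin heavy chain of differentiated smooth muscle, which stayed between 0.27 and 0.54 CPM. Tpm1, an alpha tropomyosin gene, rose from 142, 157 and 139 CPM to 740, 696 and 662 CPM (log2 fold change 2.26 ± 0.10). Cnn1 and Ccn1, the matricellular CYR61, rose by 2.62 and 2.33, and Srf itself by 0.96, from 52.3, 39.8 and 45.7 CPM to 101, 78.5 and 87.4 CPM. Acta2, Actc1 and Ankrd1 had almost no counts on day 2. Acta2, smooth muscle alpha actin, had 9, 6 and 2 counts and then 265, 93 and 206. Actc1, cardiac alpha actin, had 5, 0 and 0 counts and then 82, 45 and 78. Outside the list, and picked after its values were seen, non-muscle myosin Myh9 rose from 393, 356 and 387 CPM to 636, 931 and 616 CPM (log2 fold change 0.94 ± 0.15).

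The promoters of these genes were searched for the CArG box, because Srf binds it. RefSeq windows from 250 bases before to 50 after the start were matched for 12523 of the 18871 genes, and the box was found on either strand in 1.60% of them. It was found in 2.80% of windows of the higher genes, 1.402% of the lower genes, 4.91% of genes that rose over 4-fold and 5 of 15 windows of the smooth muscle and actin list. The runs around the box in those 5 genes are shown so that its place near the start can be read, on build GRCm38.p6, 5′ to 3′ on the strand of the gene, with 1 box in capitals.
Cnn2, chr10:79988519-79988578, plus strand: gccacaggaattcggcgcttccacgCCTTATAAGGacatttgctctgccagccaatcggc
Myl9, chr2:156775278-156775337, plus strand: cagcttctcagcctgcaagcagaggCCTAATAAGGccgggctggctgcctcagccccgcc
Actc1, chr2:114052888-114052947, minus strand: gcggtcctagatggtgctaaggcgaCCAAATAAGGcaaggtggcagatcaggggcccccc
Vcl, chr14:20929148-20929205, plus strand: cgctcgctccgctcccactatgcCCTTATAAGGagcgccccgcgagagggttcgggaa
Srf, chr17:46556210-46556269, minus strand: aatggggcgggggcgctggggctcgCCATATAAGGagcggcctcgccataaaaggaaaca
The box began 56 bases before the start in Cnn2, 47 in Actc1, 82 in Srf, whose run also holds a second box in lower case, 62 bases before the start, 161 in Myl9 and 227 in Vcl. The TEAD motif, CATTCC on either strand, was in 7 of these 15 windows and in 20.9% of windows of genes that rose over 4-fold, beside 14.7% of all windows. The TATA box, TATAAA on either strand, whose letters can overlap a CArG box, was in 19.02% of windows of genes that rose and 16.6% of genes that fell over 4-fold, beside 9.42% of all. It was in 4 of the 15 windows of the list. The E-box, CACGTG, was in 6.75% of windows of genes that rose over 4-fold beside 11.3% of all, the TCF/LEF motif, CTTTGAA, in 4.29% beside 4.41%, and the T-box motif, TCACACCT, in 1.23% beside 1.14%, each on either strand and in none of the 15 windows of the list. Such a match is a description of the letters in a window and not a bound site. The smooth muscle and actin list holds Srf itself and classical Srf targets such as Myl9, and was chosen with earlier results known. Its 5 of 15 windows with the CArG box are therefore not independent of how the list was chosen. Whether Srf acts on these genes was not tested.

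Epithelial genes rose in part. Of 15 tested members of the surface ectoderm and epithelium list, 8 rose and none fell, with a median log2 fold change of 0.49, and 6 kept the call without each library in turn. Krt8 and Krt18 form the keratin pair of the first epithelia of the embryo. Krt8 rose from 29.5, 33.9 and 22.1 CPM to 231, 166 and 155 CPM (log2 fold change 2.69 ± 0.23, adjusted p = 1.61e-07), and Krt18 from 41.4, 53.4 and 32.2 CPM to 253, 184 and 143 CPM. The tight junction genes Cldn7 and Cldn6 rose by 1.71 and 0.81 on the log2 scale. The general epithelial genes Cdh1 and Epcam, already abundant on day 2, had log2 fold changes of 0.22 and -0.08 and did not pass, and Krt14 of stratified epithelia stayed between 0.49 and 0.65 CPM. Trp63, the factor of basal epithelium, passed the test at 0.35 CPM at most, a call lost in at least 1 fit without a library, and Krt5 had 11 counts over the 6 libraries.

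Of 9 tested trophoblast markers 8 rose, with a median log2 fold change of 1.96, and 6 of them kept the call without each library in turn. They share Krt7 with the epithelial list and include the X-linked homeobox genes Rhox6 and Rhox9, which went from 6.19, 5.90 and 5.18 CPM to 35.7, 23.5 and 18.8 CPM and from 4.98, 5.56 and 4.36 CPM to 25.4, 17.5 and 15.2 CPM. Gcm1, a factor of the labyrinth, rose by 1.51 on the log2 scale, and the TEAD family member Tead4 by 0.96. The factor Ascl2 was lower (log2 fold change -0.57, adjusted p = 0.0477, edgeR), and this call was lost without any 1 of the 6 libraries, with an adjusted p above 0.05. Genes that define trophoblast stayed near 0, with 16 counts of Elf5 and none of Tpbpa and Prl3d1 over the 6 libraries. The summed level of the list was 65.3, 55.7 and 55.4 CPM on day 2 and 128, 108 and 99.2 CPM on day 3, with Ascl2 the most abundant member. Whether a share of cells of this type moved with the step was not tested.

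In the primitive streak and mesoderm list 7 of 21 tested genes rose and none fell, a count that was 3 or 4 without library 2 or 3 of day 2 or library 1 or 2 of day 3. Brachyury (T) had 21, 14 and 19 counts on day 2 and 94, 25 and 88 on day 3, and Sp5, a target of Wnt signals, had 1, 1 and 0 counts and then 41, 3 and 18. Library 2 of day 3 was the lowest of its day in both. Eomes, a T-box factor of the streak, rose from 7.71, 6.47 and 7.30 CPM to 23.4, 15.8 and 14.9 CPM (log2 fold change 1.335 ± 0.21, adjusted p = 0.000134). The calls of T, Sp5 and Eomes held without each library in turn, and the 4 that were lost in at least 1 such fit were those of Hand1, Foxc1, Tbx20 and Twist1.

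In the neural list 6 of 14 genes rose and none fell, and 4 kept the call throughout. Nes, the intermediate filament nestin, rose from 24.7, 29.2 and 23.6 CPM to 112, 115 and 95.1 CPM (log2 fold change 2.05 ± 0.12, adjusted p = 5.59e-09), and Tubb3 and Map2 by 1.13 and 1.29. The neural plate factors Sox1 and Pax6 stayed at or below 6.70 CPM without passing the test, with values between 2.28 and 6.70 CPM in Pax6. In the endoderm list 7 of 17 genes rose and 1 fell, 2 without library 3 of day 2 or library 2 of day 3. Of the members that rose, Lama1, Lamb1, Col4a1 and Col4a2 encode basement membrane proteins made by many cell types, with log2 fold changes between 0.55 and 1.43. Amn and Dab2, of the endocytic machinery of visceral endoderm, rose by 1.79 and 0.87, Amn to at most 1.03 CPM. The factor Sox7 rose by 1.68 to at most 0.51 CPM, a call lost in 5 of the 6 fits without a library. The factors Sox17, Foxa2 and Hnf4a were at or below 0.99 CPM in every library, and Hnf4a was the 1 that fell.

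Matrix genes were mixed. Of 20 collagen and matrix genes 9 rose and 3 fell. Col5a2 rose from 3.15, 2.42 and 2.78 CPM to 10.4, 13.2 and 12.2 CPM (log2 fold change 2.10 ± 0.18), whereas fibronectin (Fn1) fell from 260, 160 and 240 CPM to 86.5, 163 and 92.0 CPM (log2 fold change -0.95 ± 0.25, adjusted p = 0.00809), with 1 library of day 3 above the lowest of day 2. Col1a1, at 0.68 CPM at most, and Dcn, between 3.86 and 6.70 CPM, did not pass. Of 9 tested endothelial and blood markers 1 fell and 1 rose (11.1% each, near the shares of all tested genes). Pecam1, which stem cells also express, fell from 93.1, 91.4 and 86.6 CPM to 32.2, 40.5 and 35.7 CPM and Runx1 rose to at most 0.82 CPM. Of 4 Y-linked genes Uty had 1 count in 1 library, and Ddx3y, Kdm5d and Eif2s3y had none in the 6 libraries.

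**Figure D3:**
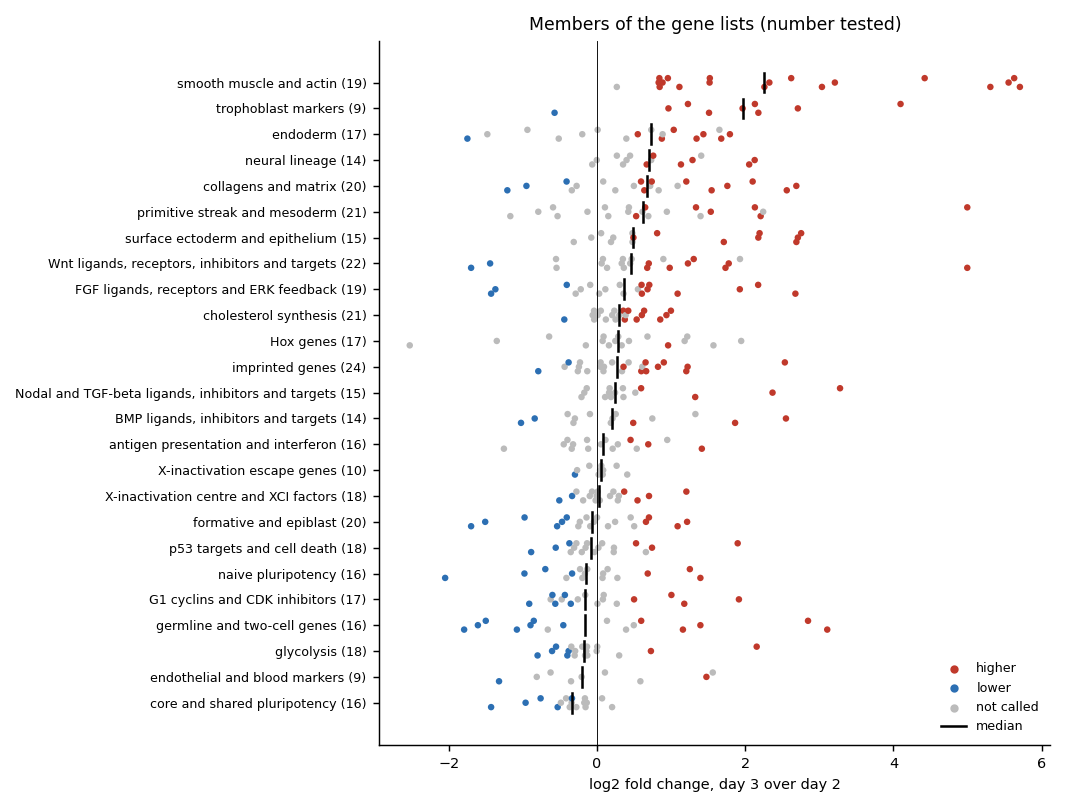
Log2 fold change of day 3 over day 2 (x axis) of each tested member of 25 gene lists (y axis, number tested in brackets), with the median as a black bar. Red and blue points passed the test and grey ones did not; 18 of 19 smooth muscle and actin genes rose, and no core pluripotency gene did.

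Of 16 naive factors 3 rose and 4 fell (18.8% and 25%, beside 13.9% and 12.8% of all tested genes), with a median log2 fold change of -0.15. Nanog, the homeobox factor of the naive state, rose from 65.5, 45.2 and 54.3 CPM to 163, 122 and 108 CPM (log2 fold change 1.25 ± 0.17, adjusted p = 2.96e-05), above every day 2 library in each of the day 3 libraries. Dppa3 (Stella) rose from 14.7, 16.7 and 12.5 CPM to 41.7, 40.0 and 33.7 CPM (log2 fold change 1.39 ± 0.17). The nuclear receptor gene Nr0b1 (Dax1), on the X chromosome, fell from 39.3, 29.0 and 32.9 CPM to 9.64, 7.06 and 7.61 CPM (log2 fold change -2.05 ± 0.15), and Klf2 and Zfp57 fell by 0.98 and 0.70. Esrrb and Tfcp2l1 did not pass, with log2 fold changes of -0.23 and 0.14.

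Of 16 core and shared pluripotency genes 5 fell and none rose, with a median of -0.34, and 9 fell when only the 6 libraries of days 2 and 3 were fitted. Fgf4, the growth factor that stem cells secrete, fell from 363, 434 and 509 CPM to 154, 170 and 161 CPM (log2 fold change -1.43 ± 0.14, adjusted p = 6.50e-07). Dnmt3l, the cofactor of the de novo methyltransferases, fell from 919, 1239 and 1297 CPM to 534, 613 and 623 CPM, and Sall1 and Dppa4 fell by 0.76 and 0.53 on the log2 scale. Pou5f1 (Oct4) measured 899, 981 and 890 CPM and then 833, 818 and 835 CPM, a log2 fold change of -0.16 that did not pass (adjusted p = 0.385), and Sox2 had -0.49 (adjusted p = 0.103).

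The formative genes divided. The de novo methyltransferase gene Dnmt3a fell from 1120, 1072 and 1191 CPM to 374, 421 and 392.4 CPM (log2 fold change -1.51 ± 0.10, adjusted p = 7.80e-09). Dnmt3b, the other de novo enzyme, had a log2 fold change of -0.23 and did not pass. Lef1, a Wnt effector, and Foxd3 fell by 1.70 and 0.98. Fgf5, the marker growth factor of the epiblast, rose from 57.2, 40.1 and 37.2 CPM to 114, 96.7 and 74.97 CPM (log2 fold change 1.09 ± 0.19), and Sfrp2 and Epha2 rose by 1.21 and 0.70. In all 6 fell and 4 rose of the 20 genes tested, of which 4 and 3 kept the call without each library in turn.

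Among Wnt genes 8 of 22 rose and 2 fell; the ligand genes Wnt3 and Wnt6 rose by 1.78 and 1.30 on the log2 scale, the feedback target Axin2 rose from 8.70, 6.67 and 8.12 CPM to 18.4, 13.4 and 14.4 CPM, and the secreted inhibitor Notum fell by 1.44. Among Nodal and TGF-beta genes 4 of 15 rose and none fell, led by Tgfb2 (1, 8 and 10 counts, then 67, 32 and 48) and the activin inhibitor Fst, while Nodal, Lefty1 and Lefty2 did not pass; without library 1 of day 2 the count was 7. Among BMP genes the ligand gene Bmp7 rose from 3.38, 2.94 and 2.54 CPM to 16.8, 17.1 and 17.8 CPM (log2 fold change 2.55 ± 0.20), and the target Id1 fell from 62.0, 57.9 and 65.4 CPM to 44.9, 22.3 and 23.6 CPM. In that list 3 of 14 rose and 2 fell (21.4% and 14.3%, beside 13.9% and 12.8% of all tested genes), 1 without library 1 or 2 of day 2 or library 2 or 3 of day 3. In the FGF list 8 of 19 rose, 5 without library 1 of day 3, and 3 fell. Its ERK feedback gene Spry2 rose by 0.705, and Fgf3 fell by 1.37.

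Further lists gave smaller or mixed counts. The cell cycle genes Ccnd1, Ccnd2 and Cdk6 rose by 1.18, 1.91 and 1.00 on the log2 scale, while Ccne1 and E2f1 fell by 0.44 and 0.92; in that list 4 of 17 rose and 5 fell (23.5% and 29.4%, beside 13.9% and 12.8% of all tested genes). Of 18 p53 targets 3 rose and 3 fell (16.7% each, near the shares of all tested genes), and 1 fell without library 2 of day 2 or library 1 of day 3, with Perp, a desmosome and cell death gene, up by 1.90 and Bax, an effector of apoptosis, down by 0.56. Of 21 cholesterol genes 9 rose and 1 fell, a count of rises that was 4 without library 2 of day 2 and 3 without library 3 of day 2 or library 1 of day 3. Hmgcs1, the synthase at the head of the pathway, rose from 259, 205 and 213 CPM to 534, 449 and 367.3 CPM. Of 16 antigen presentation genes 3 rose (18.8%, beside 13.9% of all tested genes), with B2m, the light chain of class I molecules, up by 1.41.

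The glucose transporter gene Slc2a3 (Glut3) rose from 376, 292 and 254 CPM to 1514, 1269 and 1324 CPM (log2 fold change 2.15 ± 0.15, adjusted p = 1.65e-08). Of 18 genes of the glycolysis list 2, Slc2a3 and Ldhb, rose and 5 fell (11.1% and 27.8%, beside 13.9% and 12.8% of all tested genes), with 3 falls without library 2 or 3 of day 3. The enzyme gene Aldoa measured 2465, 2219 and 1900 CPM and then 1575, 1346 and 1399 CPM. Of 24 imprinted genes 9 rose, 5 without library 2 of day 2, and 2 fell, neither of which kept the call without each library in turn. H19, the maternally expressed non-coding RNA (chromosome 7 from 142575529 to 142578143), rose from 131, 115 and 91.1 CPM to 745, 637 and 571 CPM (log2 fold change 2.53 ± 0.18, adjusted p = 3.24e-08), and its neighbour Igf2 from 2.39, 1.28 and 1.99 CPM to 4.16, 4.35 and 4.61 CPM.

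Of 16 tested genes of the germline and of the cleavage-stage embryo, 7 fell and 5 rose, 3 without library 3 of day 2 or library 1 or 2 of day 3. Tex19.1, which protects the germline from transposons, fell from 207, 225 and 224 CPM to 86.0, 63.3 and 81.9 CPM (log2 fold change -1.50 ± 0.13), and Hormad1, of the meiotic chromosome axis, fell by 1.79. Zscan4d and Zscan4c, marks of the rare stem cells that resemble the cleavage stage, rose from 11, 23 and 10 counts to 111, 57 and 144 and from 10, 12 and 4 counts to 46, 32 and 78. These are near-identical copies, so the share of reads of each is uncertain.

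Non-coding RNAs were grouped by annotated type. Of 536 lincRNA genes 128 were lower and 20 higher (23.9% and 3.73%), against 13.8% and 16.3% of 14741 protein-coding genes. Of 419 antisense genes 15.8% were lower and 3.10% higher, and of 1112 processed pseudogenes 7.64% and 2.61%. This grouping was made after the values were seen. Of 23 Platr genes, transcripts named for their association with pluripotency, 15 fell and none rose, with a median log2 fold change of -1.14. Platr10 fell from 188, 210 and 184 CPM to 107, 120 and 120 CPM, Platr14 from 94.7, 104 and 90.1 CPM to 31.6, 39.6 and 35.0 CPM, and Platr3 from 31.5, 34.9 and 35.0 CPM to 4.88, 6.63 and 6.38 CPM. Lncenc1, a stem cell lincRNA, fell by 1.09 on the log2 scale. Platr10, Platr14, Lncenc1 and the microRNA genes were picked after their values were seen.

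Of 167 tested genes of microRNA precursors 38 were higher (22.8%, beside 13.9% of all tested genes) and 1 was lower. Of the 66 that lie inside Sfmbt2 30 were higher, and of the 96 outside it and outside the Mir302 cluster 3 were (3.13%). Those 66 share a single host gene and the reads are of total RNA, so their calls are not independent of each other. No gene was taken out of these counts, Mir6236 included, which passed only through library 2 of day 3. Sfmbt2 itself rose from 85.5, 88.9 and 109 CPM to 150, 186 and 179 CPM (log2 fold change 0.86 ± 0.14). The other 5 higher ones are the Mir302 and Mir367 genes, a cluster known from pluripotent cells (chromosome 3 from 127545228, inside Larp7 on the other strand). Mir302b had 48, 87 and 76 counts on day 2 and 307, 126 and 191 on day 3 (log2 fold change 1.90 ± 0.38, adjusted p = 0.00111), while Larp7 had a log2 fold change of -0.35 that did not pass. The calls of the other 4 were lost in at least 2 of the fits that left out a library. The reads are of total RNA over the precursor gene and do not measure the mature microRNA. Mature forms of Mir302b, Mir302c, Mir302d and Mir367 are shown from RefSeq (GRCm38.p6), 5′ to 3′, with the seed, bases 2 to 8, in capitals, to show how far their seeds are alike. For Mir302a, miR-302a-3p is named only.
miR-302b-3p: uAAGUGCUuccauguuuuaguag
miR-302d-3p: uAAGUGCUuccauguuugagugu
miR-302c-3p: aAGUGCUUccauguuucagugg
miR-367-3p: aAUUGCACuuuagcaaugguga
The forms of Mir302b and Mir302d share a seed, the entry of Mir302c begins 1 base later in the same run, and Mir367 has a different seed.

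The X chromosome was examined because both X chromosomes are active before XCI. Of 747 X-linked genes 166 were higher (22.2%) and 122 lower (16.3%), against 13.5% and 12.7% of 18075 autosomal genes, and the median log2 fold change was 0.10 against 0.01. The summed X-linked counts without Xist, relative to the autosomal counts, were 4.82%, 4.65% and 4.86% on day 2 and 5.28%, 5.07% and 5.21% on day 3. On the log2 scale the ratio was -4.39 ± 0.03 and -4.27 ± 0.03 (SD, n = 3), a difference of 0.12. All 3 libraries of day 3 were above all of day 2 (exact permutation test, two-sided, p = 0.10, the smallest p that 3 against 3 allows; with the replicates paired, exact sign-flip test, p = 0.25, again the smallest).

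Both rises and falls of single X-linked genes entered this difference, with the largest rises in CPM in Rlim and Flna. Rlim, the X-linked ubiquitin ligase that promotes Xist expression (chromosome X from 103957163 to 103981284), rose from 689, 499 and 524 CPM to 1506, 1313 and 1125 CPM (log2 fold change 1.205 ± 0.18, adjusted p = 9.75e-05). The actin cross-linker gene Flna rose from 514, 548 and 562 CPM to 962, 1065 and 968 CPM. Together they made up 37.2% of the net difference in summed X-linked CPM, in which falls of other genes offset part of the rises. Without both, a step chosen after the values were seen, the difference of the log2 ratio was 0.08, again with p = 0.10 by the exact test. Morf4l2, Rbbp7, Atrx and Bex1 rose by 0.65, 0.49, 0.51 and 0.99 on the log2 scale, and Usp9x, Dusp9, Trap1a and Pgrmc1 fell by between 0.48 and 1.41. Cul4b had a log2 fold change of 0.48 and did not pass (adjusted p = 0.0659, edgeR).

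Xist itself measured 198, 128 and 233 CPM on day 2 and 153, 170 and 233 CPM on day 3, with overlapping values (log2 fold change -0.01 ± 0.25, adjusted p = 0.992). Of its allele-specific counts 52.0% ± 0.90 were from B6 on day 2 and 48.9% ± 4.29 on day 3 (SD, n = 3). Of 18 genes of the X-inactivation centre and XCI factors, 4 rose and 2 fell (22.2% and 11.1%, beside 13.9% and 12.8% of all tested genes); besides Rlim, Smchd1, which keeps silenced genes shut, rose from 167, 156 and 157 CPM to 283, 252 and 245 CPM (log2 fold change 0.70 ± 0.13), and Cdyl fell by 0.51. The calls of Ciz1 and Ftx (higher) and of Zfp42 (lower) were lost in at least 1 fit without a library. Of 10 genes known to escape XCI none rose and 1, Eif2s3x, was lower (10%, near the 12.8% of all tested genes), a call lost in 3 of the 6 fits that left out a library.

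The B6 share of X-linked allele-specific counts was 51.4%, 50.9% and 51.1% on day 2 and 51.1%, 50.8% and 51.1% on day 3. The difference of -0.14 percentage points lay within the spread between replicates (exact permutation test, two-sided, p = 0.50). As a median over 248 genes it was 0.0625, of the other sign, and without 1 library it was -0.25 to -0.03. On autosomes the share was 51.16% ± 0.02 and 51.31% ± 0.07 (SD, n = 3), with all 3 libraries of day 3 above those of day 2 (exact permutation test, two-sided, p = 0.10, the smallest possible), and relative to it the X-linked difference was -0.29 percentage points. A sum over cells that silence either chromosome cannot show the silencing in each cell.

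**Figure D4:**
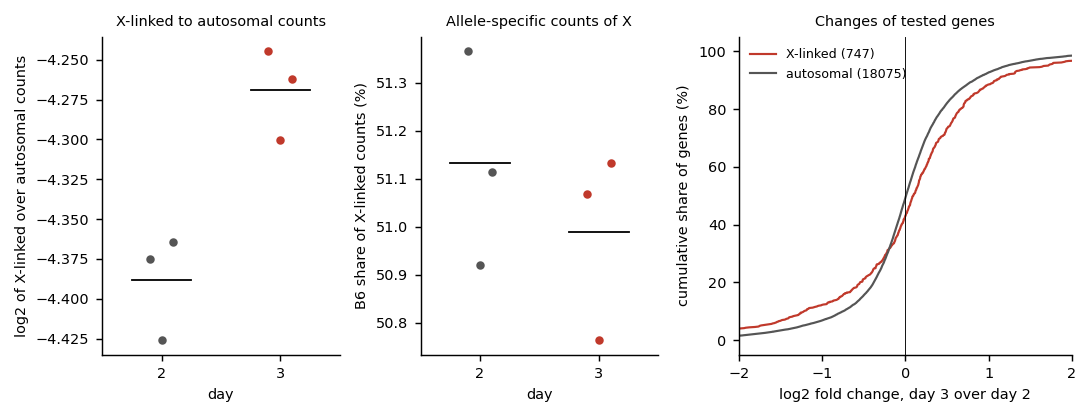
Left and middle, the log2 ratio of X-linked to autosomal counts and the B6 share of X-linked allele-specific counts (%) in each library of days 2 and 3, with the mean as a bar; the y axes do not start at 0. Right, the cumulative share of tested X-linked and autosomal genes (%) by log2 fold change; the ratio of X-linked to autosomal counts does not overlap between the days and the B6 share does.

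For the leading genes the 5 days of the series place the step in time. Tagln measured 0.09 ± 0.03, 2.49 ± 0.67, 3.13 ± 0.78, 165 ± 25.1 and 419 ± 21.1 CPM on days 0 to 4 (SD, n = 3). Cnn2, Thbs1 and Myl9 were lowest on day 0 and higher on day 1 than on day 2; Cnn2 measured 9.01, 38.3, 14.5, 119 and 248 CPM on average. Nanog had its lowest mean on day 2, with 1080, 223, 55.0, 131 and 223 CPM, and Slc2a3 did too, with 1473, 474, 308, 1369 and 2915 CPM. Dnmt3a had its highest mean on day 2, with 55.6, 438, 1128, 396 and 129 CPM. Septin1 and Epas1 were highest on day 1, with 155 and 174 CPM. These levels share libraries with the step and are a description.

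**Figure D5:**
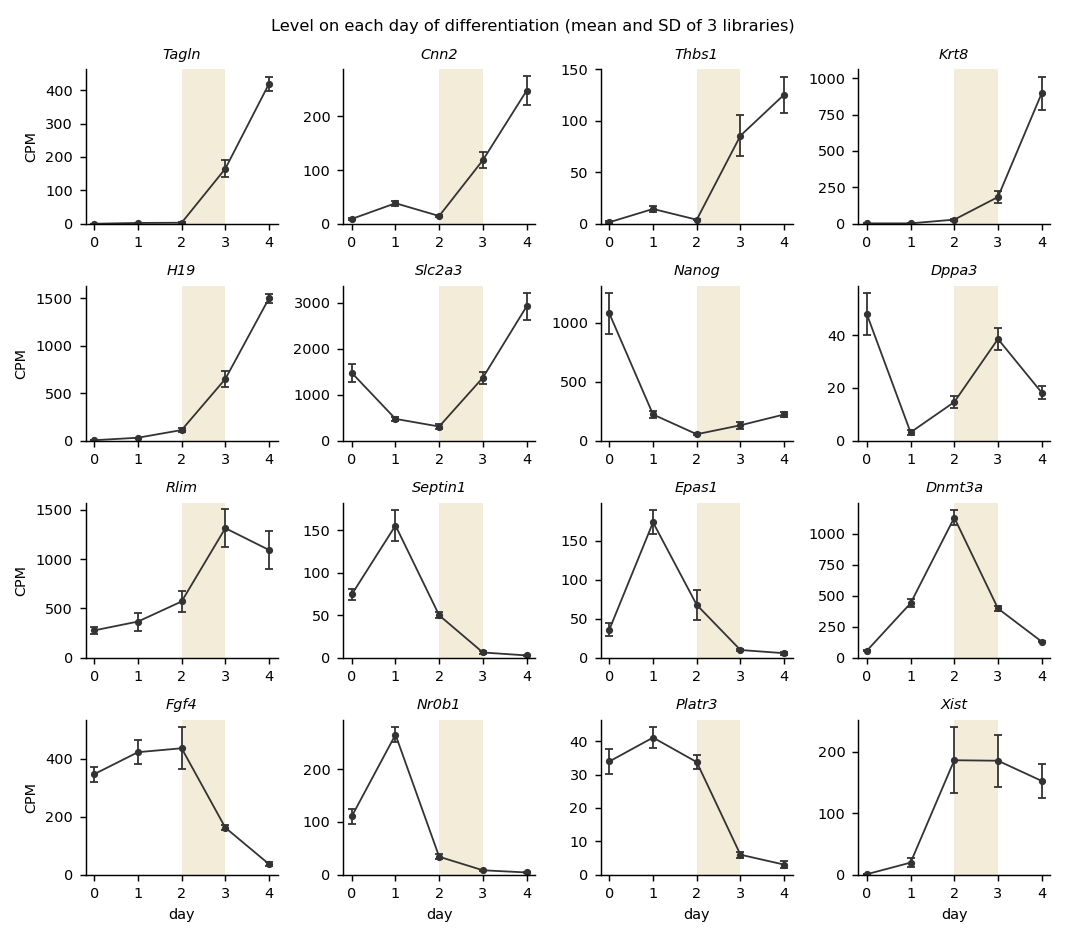
Mean CPM (y axis) with the SD of 3 libraries on days 0 to 4 (x axis) for 16 genes, with the interval from day 2 to day 3 shaded. Each panel has its own scale from 0; Nanog and Slc2a3 are lowest and Dnmt3a is highest on day 2.

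The single cells of the same days show in how many capture sites these genes were detected. A site in which a gene was not detected may still hold its RNA, and no background share is given. Of 400 sites a day, 369 on day 2 and 302 on day 3 held at least 40000 unique molecular identifiers (UMIs), with medians of 124701 and 123491.5. There was 1 culture a day and no test. UMIs of Tagln were found in 28 of 369 sites on day 2 (7.59%, 95% exact binomial interval 5.10 to 10.8) and in 216 of 302 on day 3 (71.5%, 66.1 to 76.5), and after thinning to equal depth in 5.42% and 60.9%. Krt8 was found in 27.4% and 58.6% of sites and Nanog in 30.6% (26.0 to 35.6) and 65.2% (59.6 to 70.6). UMIs of Acta2 were found in 2.44% and 9.27% of sites, at summed levels of 0.65 and 14.5 CPM. The gene called Septin1 in bulk (Sept1 in the single-cell table) was found in 48.0% and 10.3%, Epas1 in 69.1% and 18.2%, and Aire in 71.5% and 18.2%. Dnmt3a and Fgf4 were abundant enough on day 2 to be found in 99.5% of sites, and in 89.7% and 82.1% on day 3, while their summed levels went from 642 to 258 CPM and from 570 to 237 CPM. Xist was found in 94.6% and 82.5% of sites, and its summed level went from 706 to 514 CPM, while its bulk values overlapped between the days. The intervals cover counting error only, and sites without a cell or with several were not removed beyond the UMI minimum.

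In TXdXicB6 and TXdXicCast, which share no library with TX1072 and were sequenced with another kit and read length, the same step called 2504 genes higher (12.6%) and 2613 lower (13.1%) in TXdXicB6 and 2775 higher (14%) and 2698 lower (13.6%) in TXdXicCast, of 19885 tested. With TXdXicB6, 1576 higher genes were shared (60.2% of those of TX1072 and 62.9% of those of the line) and 1552 lower genes (64.1% and 59.4%). With TXdXicCast, 1970 higher (75.3% and 71.0%) and 1775 lower genes (73.3% and 65.8%) were shared. Only 3 genes were called in opposite directions in TXdXicB6 and none in TXdXicCast. All 32 genes named by rule passed in the same direction in both lines.

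Tagln rose from 3.37 ± 0.37 to 52.97 ± 13.4 CPM in TXdXicB6 and from 5.02 ± 1.76 to 170 ± 124 CPM in TXdXicCast (SD, n = 3). Of the smooth muscle and actin list 16 and 17 of 19 genes rose and none fell. Nanog rose by 0.44 and 0.91 on the log2 scale (adjusted p = 0.0174 and 1.42e-05, edgeR) and Dppa3 by 1.14 and 1.27. Rlim had log2 fold changes of 0.32 and 0.37 and did not pass (adjusted p = 0.113 and 0.0606), and the median over X-linked genes was -0.06 and 0.01, beside 0.10 in TX1072. Xist rose in TXdXicB6 from 232 ± 55.4 to 549 ± 189 CPM (SD, n = 3; log2 fold change 1.24 ± 0.30, adjusted p = 0.00296, edgeR) and measured 263 ± 31.5 and 342 ± 54.1 CPM in TXdXicCast without passing (log2 fold change 0.38 ± 0.30, adjusted p = 0.373, edgeR). Whether these values differ from those of TX1072 was not tested, since the kits differ with the lines. The step differed between the deletion lines in 0 of 19885 genes by edgeR's test of the difference. An unadjusted p under 0.05 was reached by 635 of these 19885 genes, a smaller share than that threshold.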

How the data were processed

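Total RNA of TX1072 and of the deletion lines was sequenced in paired reads, and the authors aligned it with STAR 2.5.2b to mm10 masked at B6 and Cast variants and counted reads per gene with featureCounts. The deposited tables hold raw counts per gene and, from SNPsplit, allele-specific counts. The strand setting of the counting is not given in the sources used here. The 92 ERCC rows held 0 counts and were left out.

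The edgeR 4.0.16 quasi-likelihood test (R 4.3.3) was fitted on the counts of all 15 TX1072 libraries with a coefficient per day. It followed filterByExpr and used TMM factors from autosomal genes and Benjamini-Hochberg adjustment at 0.05. The same fit was run on simulated counts, with known changes only in genes of higher counts. These had a single spread for all genes and no library that stood apart, so they do not show how the fit handles such a library or low counts. The deletion lines had a fit of their own over 30 libraries. Errors of log2 fold changes are SE. Gene names were joined to the GENCODE annotation of mm10. Gene lists and comparisons were chosen with earlier results of these data known. The rule for named genes took the 15 largest increases, the 15 largest decreases and the 3 largest X-linked decreases, of which Xlr5a was among both, with libraries that did not overlap and a mean of at least 100 counts, leaving out predicted models (2 among the decreases and 0 among the increases), and the members of the lists. Single-cell UMI counts were summed over sites.

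Replicate numbers pair libraries, since each number was differentiated on its own date according to the study's reporting summary. Deviations of same-numbered libraries of days 2 and 3 correlated at 0.00, -0.04 and 0.08, with a median of 0.19 over all days against -0.10 for other numbers. Alternatives were DESeq2 1.42.0, other size factors and filters, the 6 libraries alone, the replicate block and leaving out each library.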

Additional observations from a re-analysis of the deposited data

How the results depend on the processing

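From 2616 higher and 2421 lower genes, DESeq2 gave 2732 and 2380, TMM factors of all genes 2607 and 2426, DESeq2 size factors 2681 and 2337, no filter 2640 and 2439, a filter at 50 counts 2094 and 1936, and the 6 libraries alone 2785 and 2731. The replicate block gave 2923 and 2744, and leaving out 1 library gave 1952 to 2319 and 1800 to 2147. All 32 genes named by rule kept direction and call under all of these. They were chosen from the same libraries for large changes without overlap, which favours that outcome. Of 486 genes followed, the block ended 2 calls and added 14, and leaving out a library ended between 18 and 50. Only without library 2 of day 3 did the fold change of a called gene among them reverse. Log2 fold changes without 1 library ranged from -0.092 to 8.57 for Lars2, -1.13 to 9.46 for Gm15564, -0.57 to 4.86 for Gm24187 and -0.89 to 4.72 for Gm23935. All were high in library 2 of day 3 alone. The core pluripotency list had 9 lower genes in place of 5 with the 6 libraries alone. The X-linked to autosomal difference was 0.12 with Xist, 0.09 as a median over genes, 0.12 for genes with 50 counts, 0.08 without Rlim and Flna, and 0.10 to 0.135 without a library. The difference in B6 share was -0.14 percentage points and was -0.29 relative to the autosomal share, and changed sign to 0.0625 as a median over 248 genes; the cause was not tested. Without a library it was -0.25 to -0.03. In TXdXicB6 the block gave 3183 higher and 3440 lower genes, and leaving out a library 1708 to 2382 and 1547 to 2193, the lowest 1547 without replicate 3 of day 3. In TXdXicCast the block gave 3396 and 3461, and leaving out a library 1933 to 2725 and 1566 to 2415, the lowest 1566 without replicate 3 of day 3. Depth limits genes such as Acta2 and Sp5, with few counts on day 2, whose fold changes depend on small counts.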

Other observations

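Nanog, Dppa3 and Slc2a3, which all rose, are neighbours on chromosome 6 (mm10), and the genes around them were read after these values were seen. Slc2a3 and Nanog had log2 fold changes of 2.15 and 1.25 and Dppa3 of 1.39. Gdf3, a TGF-beta family ligand between Apobec1 and Dppa3, had -0.14 and did not pass (160.75 and 145.89 CPM on average, adjusted p = 0.538, edgeR). Apobec1, a cytidine deaminase, fell by 0.66 (adjusted p = 0.0278), and Mfap5, at the far end of the interval, fell by 2.58.

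Eif2s3x gave 2.53% of its allele-specific counts from B6 on both days, and the cause of this skew was not tested. The paper excluded genes whose reads were strongly skewed to a single allele from its single-cell analysis. Here such genes were not removed from the B6 share of X-linked counts. Metallothionein genes Mt1 and Mt2 fell by 1.26 and 1.57 on the log2 scale, and Upp1, a uridine phosphorylase, fell from 369, 432 and 366 CPM to 113, 69.8 and 91.3 CPM. Amot, an X-linked regulator of Hippo signalling, rose from 6.12, 4.16 and 6.13 CPM to 32.7, 26.9 and 29.0 CPM (log2 fold change 2.44). These genes were picked after their values were seen.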
